A study of Mus musculus with 8 samples.

Results

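Tenocyte nuclei, the nuclei of tendon fibroblasts, were picked out of single-nucleus RNA sequencing of mouse gastrocnemius, a calf muscle, by UMIs of 5 tendon genes, so that the members were chosen by measured values. UMIs are molecular tags by which every RNA molecule is counted no more than once. A nucleus was a member when the summed UMIs of Tnmd, Scx, Mkx, Fmod and Thbs4 reached 3 or more, at least 2 of these genes were detected, Tnmd, Fmod or Scx had at least 1 UMI, and Pecam1, Ptprc, Pax7 and Dpp4 had none. The rule was applied to nuclei with over 200 and under 6000 detected genes and under 6% mitochondrial UMIs in the 4 libraries made with 10x Genomics droplets. It found 180 members among 47059 retained nuclei, and the whole series held 64803 retained nuclei.

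The series compared old with young mice and running with sedentary mice. All groups were wild-type C57BL/6 animals, and the running group had trained on a treadmill for months, with both running and sedentary mice middle-aged. Each of the 4 groups, Old, Young, Running and Sedentary, had 1 library in the 10x set and 1 in a second set made with another droplet system. How many mice went into a library, and whether they were pooled, is not given in the sources used here. With 1 10x library per group no test between groups was possible, so no p-value is given. Intervals are 95% and cover counting error only, and a difference between groups cannot be told apart from a difference between those libraries or animals.

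Tenocytes sit in rows between the collagen fibres of tendon and lay down and maintain them. Scx, also called scleraxis, and Mkx, also called Mohawk, are transcription factors of the tendon lineage. Tnmd, or tenomodulin, is a membrane protein of mature tenocytes. Fmod, or fibromodulin, is a small leucine-rich proteoglycan that binds collagen fibrils, and Thbs4, or thrombospondin 4, is a matrix glycoprotein of tendon and of its junction with muscle. In muscle such cells are found where tendon and aponeurosis join the fibres, beside fibro-adipogenic progenitors, the connective tissue cells of the interstitium.

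The 10x libraries were of like depth in Old, Young and Running, with median UMIs per retained nucleus of 2790, 3001 and 2805, and shallower in Sedentary, with 1664. Retained nuclei numbered 11686, 11795, 12991 and 10587 in this order, of 47258 deposited in all. Barcodes shared between 10x libraries numbered 222 summed over the pairs of libraries, and 0 members carried one. In the second set the rule found 2 nuclei in Old, 3 in Young and 0 in Running and Sedentary among 17744 retained nuclei. For the libraries at 0, the exact interval reaches up to a share of 0.0872% in Running and 0.0871% in Sedentary. Those 5 nuclei are not used further.

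Tenocyte nuclei were most frequent in the Young library. They numbered 35 in Old and 109 in Young, 34 in Running and 2 in Sedentary. Of the retained Old nuclei 0.300% were members (exact Clopper-Pearson interval 0.209 to 0.416), of the Young ones 0.924% (0.759 to 1.11), of the Running ones 0.262% (0.181 to 0.366) and of the Sedentary ones 0.0189% (0.00229 to 0.0682). The Young share was thus 3.09 times the Old share (2.09 to 4.65). The Running share was 13.9 times the Sedentary share, with an interval of 3.55 to 119 that rests on the 2 Sedentary nuclei. Old and Running had overlapping intervals.

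A few nuclei of other kinds also carried the markers. The marker part of the rule was met by 1 nucleus with a Pecam1 UMI, which marks endothelium, in each library: 1 of 767 in Old (0.130%), of 479 in Young (0.209%), of 570 in Running (0.175%) and of 508 in Sedentary (0.197%). Median UMIs of these Pecam1 nuclei were 2195, 2748, 2092 and 1450.5. Among nuclei with a UMI of Ptprc, the leukocyte antigen CD45, it was met by 3 of 773 in Old (0.388%, interval 0.0801 to 1.13), 2 of 426 in Young (0.469%), 1 of 303 in Running (0.330%) and 0 of 273 in Sedentary. The Sedentary share of members, which rests on 2 nuclei, lay below the Pecam1 point value of its own library. It lay inside the wide interval of that value (0.00498 to 1.09). Whether these 2 nuclei are background was not tested. In Old, Young and Running alike the shares of members lay inside the wide intervals of the Pecam1 and Ptprc shares of the same library and above the Pecam1 point values. The Young share lay above its Ptprc point value, and the Old and Running shares lay below theirs. Among nuclei with at least 20 UMIs of Ttn, the sarcomere gene titin, the marker part was met by 9 of 6116 in Old (0.147%), 11 of 7970 in Young (0.138%), 8 of 8679 in Running (0.0922%) and 0 of 7561 in Sedentary, where the exact interval reaches up to 0.0488%. These counts include members themselves, 8 in Old, 8 in Young and 1 in Running, so they are no background rate of other nuclei.

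The contrast between Young and Old depended on what was counted. When all retained nuclei were clustered, 150 of the 180 members (83.3%) fell into 1 cluster of 395 nuclei, here called the tendon cluster, led by Kera, Fmod, Chad, Thbs4, Mkx, Col11a1, Insc, Tnc, Ccdc3 and Col12a1. Its nuclei numbered 111 in Old and 168 in Young, 105 in Running and 11 in Sedentary, which were 0.950%, 1.42%, 0.808% and 0.104% of the libraries. By this count the Young share was 1.5 times the Old share and the Running share 7.78 times the Sedentary share. The median depth of tendon-cluster nuclei was 869 UMIs for Old, 2365 for Young, 1576 for Running and 702 for Sedentary. Nuclei of at least 1000 UMIs were also thinned to 1000 before the rule was applied. Of these, 74 of 11366 Young and 18 of 10798 Old nuclei were members, a ratio of 3.91. Shallower nuclei were left out there, 429 in Young and 888 in Old, among them 9 of the 109 Young and 10 of the 35 Old members. The ratio therefore also reflects that loss. All thinned values below leave such nuclei out as well. Among non-myonuclei 91 of 3227 Young and 18 of 4413 Old nuclei were members, a ratio of 6.91, and members that counted as myonuclei were left out there, so both the members and the total changed.

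Fibro-adipogenic progenitors of the interstitium, counted by Smoc2 and Col6a6 UMIs with Pdgfra or Dcn, ordered the libraries otherwise. Interstitial progenitors were 18.0% of nuclei for Old, 10.97% for Young, 11.4% for Running and 2.73% for Sedentary. Members per 100 interstitial progenitors were 1.66 for Old, 8.42 for Young, 2.30 for Running and 0.692 for Sedentary. The Sedentary library was thus lowest in members, in interstitial progenitors and in members per 100 interstitial progenitors. The cause was not tested.

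**Figure D1:**
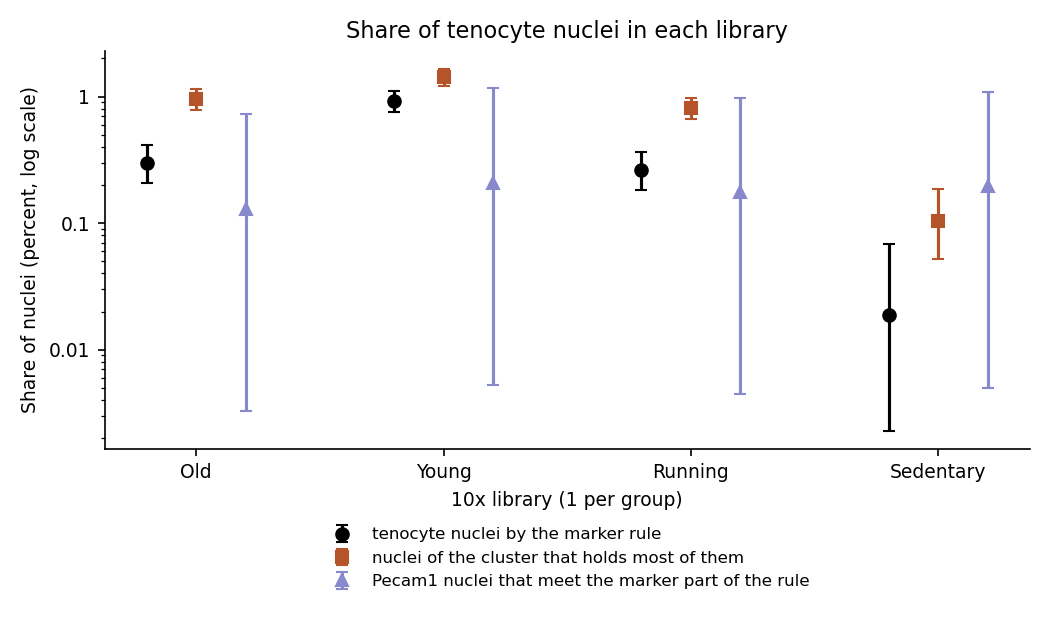
Shares of retained nuclei (percent, log axis) in the 4 10x libraries, 1 per group, for members of the marker rule (black circles), nuclei of the tendon cluster (red squares) and, among nuclei with a Pecam1 UMI, those meeting the marker part of the rule (blue triangles); bars are 95% exact binomial intervals. The members range from 0.0189% in Sedentary to 0.924% in Young, and the tendon cluster from 0.104% to 1.42%.

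The 5 genes of the rule chose the members, so their values are a description. Fmod was detected in 165 of the 180 members, Thbs4 in 148, Mkx in 113, Tnmd in 49 and Scx in 14. The most common combinations were Mkx, Fmod and Thbs4 together in 57 members and Fmod with Thbs4 in 46, then Mkx with Fmod in 20 and Tnmd, Mkx, Fmod and Thbs4 in 16. Fmod and Thbs4 are also the genes by which the study named its tenocytes. All 5 rule genes were detected together in 3 members, each of them in Young.

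Summed over the members, Fmod had 74 UMIs in Old and 449 in Young, 113 in Running and 3 in Sedentary. As counts per 1000000 UMIs of the member nuclei (CPM), this was 730 (573 to 916), 1313 (1194 to 1440), 1339 and 1353. Thbs4 had 95, 620, 168 and 3 UMIs, or 937 CPM in Old and 1812 in Young, 1991 in Running and 1353 in Sedentary. Mkx had 42, 249, 63 and 0 UMIs, or 414, 728 and 746 CPM in the first 3 libraries. Since the rule sets a floor under these values, nothing is read from their order.

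Tnmd was sparse, with 4 UMIs in Old and 57 in Young, 8 in Running and 0 in Sedentary, or 39.5, 167 and 94.8 CPM in the first 3. Scx had 4, 12, 1 and 0 UMIs. These few Scx molecules support no comparison between libraries. On GRCm38, Fmod lies on chromosome 1 at 134037254 to 134048277 (plus strand), Thbs4 on chromosome 13 at 92751590 to 92794818 (minus), Tnmd on chromosome X at 133850980 to 133865577 (plus) and Scx on chromosome 15 at 76457452 to 76459458 (plus).

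Many members lay near the limit of the rule. At exactly 3 marker UMIs stood 9 of the 35 Old, 12 of the 109 Young, 5 of the 34 Running and both Sedentary members. Just outside, with 2 UMIs and everything else met, were 7, 6, 8 and 3 nuclei. The median marker UMIs of a member were 5 for Old, 8 for Young, 8 for Running and 3 for Sedentary. Median total UMIs per member were 1897, 2489, 1689 and 1109. Nuclei kept out by a Dpp4 UMI alone numbered 14, 29, 40 and 1, more than the members themselves in Running.

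Members were next compared with 3 other classes in the same libraries. These were the interstitial progenitors, adventitial progenitors (Pi16 and Dpp4 UMIs with Pdgfra or Dcn) and myonuclei of the myotendinous junction (Col22a1 and Ttn UMIs). The Sedentary library held 2218 UMIs in its members and was left out of ratios. Of 404 genes with at least 200 UMIs in the members, 59 (14.6%) were at least 2-fold higher than in interstitial progenitors in the Old, Young and Running libraries alike, and 2 (0.495%) at least 2-fold lower. Against adventitial progenitors these were 55 (13.6%) and 7 (1.73%), and against junction myonuclei 140 (34.7%) and 18 (4.46%). Since a marker rule defined the classes, these are descriptions. Genes entered by their UMIs in the members, which keeps genes that are high there, and the higher ones include Fmod, Thbs4 and Mkx of the rule, so nothing is read from the split of higher and lower.

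Tendon genes that the rule did not read are described next. Of 23 further tendon markers, 16 had at least 50 UMIs, and 10 of these were at least 2-fold above interstitial progenitors in all 3 libraries, beside 6.75% of all 2312 genes at this limit. Against adventitial progenitors it was 10 of 16 beside 6.88%, and against junction myonuclei 11 of 16 beside 23.1%. Markers and other genes alike entered by their UMIs in the members, and markers under 50 UMIs were not counted. These counts are thus a description, and nothing about the label of tenocyte is read from them. Col11a1, a minor fibrillar collagen that nucleates fibrils, had 197 CPM in Old, 807 in Young and 296 in Running members, against 2.22, 4.76 and 2.64 in interstitial progenitors. Its ratios ran from 89.0 to 169. Tnc, or tenascin C, a glycoprotein of loaded tendon, had 306, 576 and 438 CPM against 1.48, 9.52 and 2.88. Col12a1, a collagen that sits on the surface of fibrils, had 168, 1196 and 640 CPM against 5.77, 26.2 and 15.4, with ratios from 29.1 to 45.7.

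Several leading genes were outside the usual tendon lists. P3h2, a prolyl 3-hydroxylase that modifies collagen chains, had 335, 1333 and 1315 CPM in Old, Young and Running members against 7.39, 18.6 and 8.17 in interstitial progenitors. Kirrel3, an adhesion protein of the immunoglobulin family, had 986, 1997 and 1635 CPM against 15.8, 20.5 and 31.5, and ranked first against adventitial progenitors with ratios from 29.7 to 120. Mylk, the myosin light chain kinase, ranked first against junction myonuclei, with 631, 1503 and 1244 CPM against 10.6, 9.62 and 9.41. Piezo2, a stretch-gated ion channel, had 306, 1128 and 1031 CPM against 14.2, 28.9 and 25.5 in junction myonuclei, with ratios from 21.6 to 40.4. These values lay apart from those of the comparison classes in each of the 3 libraries.

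Chodl also belonged to this group, with 602 CPM in Old, 289 in Young and 841 in Running members against 5.03, 4.05 and 4.32 in interstitial progenitors. The study used Chodl with Pax7 to name muscle stem cells. In the members Pax7 was 0 by the rule. The 10 muscle stem cell genes, Chodl among them, had 112 UMIs in Old, 127 in Young and 79 in Running members, of which Chodl gave 61, 99 and 71. Of the list, Myf5 and Calcr were at 0 in all 4 libraries. Chodl UMIs were found in 16 of 35 Old (45.7%), 33 of 109 Young (30.3%) and 15 of 34 Running members (44.1%). After thinning to 1000 UMIs these shares were 32.0% of 25, 22.0% of 100 and 38.7% of 31 members. Among nuclei with a Pecam1 UMI they were 2.61%, 2.71% and 2.28% at the median depths given above, so Chodl in members was above background in each of these libraries.

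Col22a1 and Dcn are shared with the neighbouring classes. Col22a1, a collagen of the muscle side of the myotendinous junction whose UMIs chose the junction myonuclei, had 187 CPM in Old, 617 in Young and 94.8 in Running members, between 1358, 1818 and 1652 in junction myonuclei and 6.80, 1.67 and 8.65 in interstitial progenitors. Dcn, or decorin, a proteoglycan of most fibroblasts, had 1736, 2228 and 2666 CPM in members against 3065, 2855 and 2389 in interstitial progenitors. Dcn values of these classes overlapped, and it did not set members apart.

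**Figure D2:**
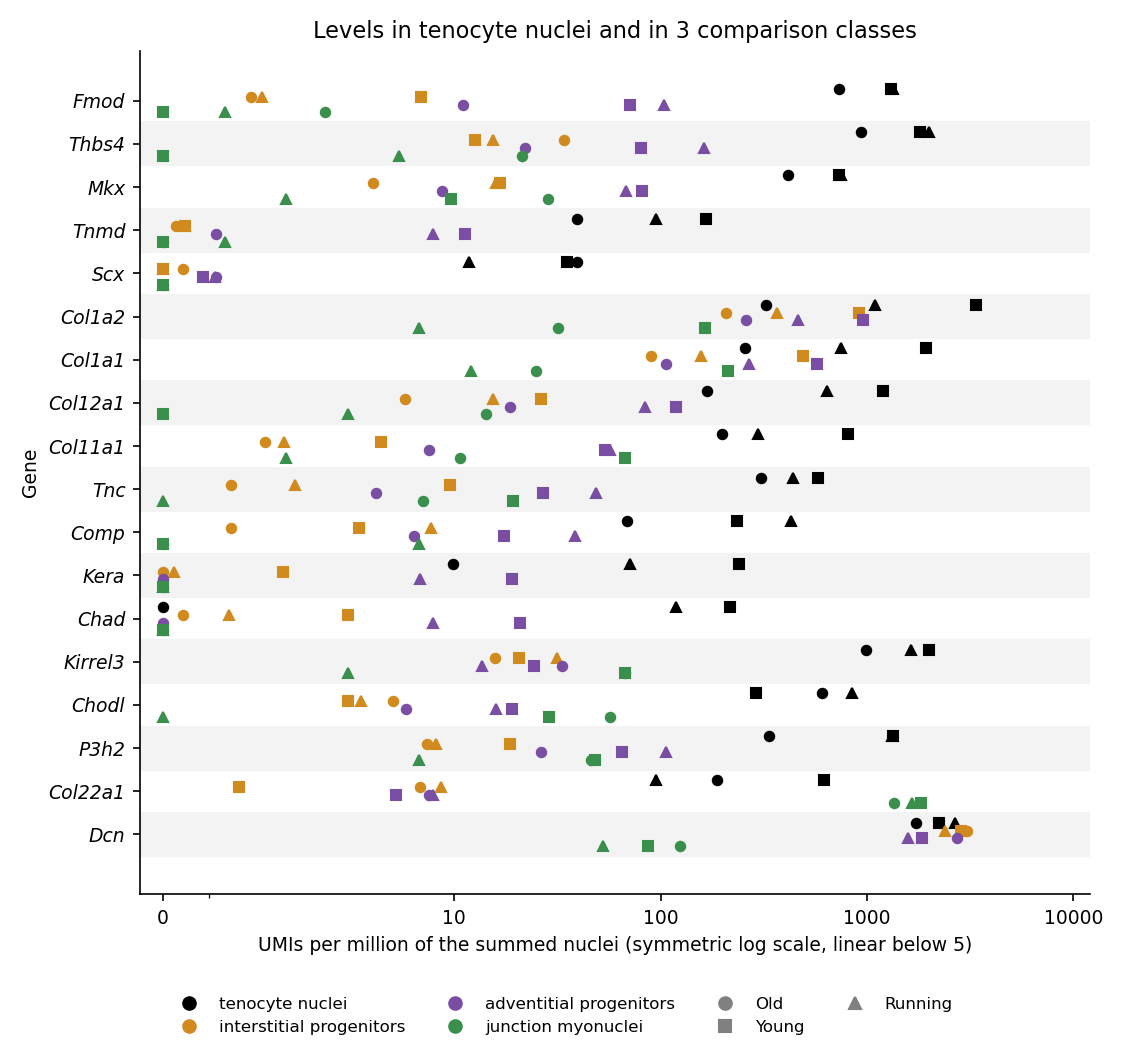
CPM of the summed nuclei (symmetric log axis, linear below 5) of 18 genes in members (black), interstitial progenitors (orange), adventitial progenitors (purple) and junction myonuclei (green); circles are Old, squares Young and triangles Running, 1 library each. For Col11a1, Tnc, Col12a1 and P3h2 the 3 black points lie to the right of all others, while Dcn overlaps with both progenitor classes and Col22a1 is highest in junction myonuclei.

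Markers of other cells varied in the members. The 10 endothelial genes made up between 0.00118% and 0.00888% of UMIs in Old, Young and Running members, with Cdh5, Mmrn1, Cyyr1 and Vwf at 0. The 14 macrophage and lymphocyte genes made up between 0.0406% and 0.0687%, with Il7r, Cd79a, Ms4a1 and Themis at 0, and Schwann cell and perineurial genes between 0.0109% and 0.0550%, with Sox10 at 0. Fibro-adipogenic progenitor genes made up 0.697% in Old, 0.647% in Young and 1.16% in Running. The 20 myofibre genes made up 4.35% in Old, 1.12% in Young and 0.950% in Running. The muscle stem cell genes made up 0.110%, 0.0371% and 0.0936%, and pericyte and smooth muscle genes 0.0829%, 0.0289% and 0.0261%. Adipocyte genes made up 0.0730%, 0.0503% and 0.376%, and 100 of the UMIs of Acsl1, which activates fatty acids, came from 1 Running nucleus.

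Myofibre RNA was concentrated in a few members. Ttn reached 20 or more UMIs in 8 of 35 Old, 8 of 109 Young, 1 of 34 Running and 0 of 2 Sedentary members. These members held 49.9% of the member UMIs in Old, 13.2% in Young and 3.01% in Running. Their median depth was 5538.5 UMIs in Old and 5508 in Young. Most lists and named genes of the comparison of Old with Young are therefore also given without these Ttn-rich members. Whether such nuclei are 2 nuclei in a droplet was not tested, and doublet scores removed 4 Old, 5 Young and 1 Running members when the 6% of nuclei with the highest scores were left out.

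Clustered alone, the 180 members split into 7 groups. The first, of 50 nuclei, was led by Dock8, Angptl7, Chad, Ccdc3, Il33, Comp, Thbs1 and Sema3a. In it Chad, or chondroadherin, a matrix protein of cartilage and tendon, had 527 CPM against 61.9 in the other members, Comp, the cartilage oligomeric matrix protein, 672 against 117, and Kera, the corneal and tendon proteoglycan keratocan, 463 against 90.5. Col1a2 had 5747 CPM in it against 1545 in the other members. Of its 50 nuclei 44 came from Young, 5 from Running and 1 from Old.

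The second, of 36 nuclei, was led by Edil3, an integrin-binding secreted protein, with 2279 CPM against 187. Chodl had 1239 CPM there against 313, and Itga11, a collagen-binding integrin, 427 against 122. It held 12 Old, 15 Young and 9 Running nuclei. The fourth, of 22 nuclei, was led by Col22a1, with 3203 CPM against 26.1 in the others, and by Postn, or periostin, with 425 against 6.53. Thbs4 was also high there, at 3075 CPM against 1456, while Chad and Comp had 0 UMIs. Of these 22 nuclei 17 came from Young. Nearly all of the Col22a1 of the members, 226 UMIs of 238, lay in this group.

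The sixth, of 15 nuclei, stood apart from the rest. It was led by Frmpd4, Sfrp2, Gpc3 and Sfrp4, with 896 CPM of the secreted Wnt inhibitor Sfrp2 against 8.74, and had little Thbs4, at 138 CPM against 1915, and little Fmod, at 303 against 1349. Only 1 of its 15 nuclei was in the tendon cluster. In the clustering of all nuclei 21 members, 16 of them Young, lay in a cluster led by Gdf10, Cdh11 and Sfrp2, which does not lead with tendon genes. The label of tenocyte therefore rests on the rule alone for these nuclei.

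The other 3 groups were led by genes of other cells or by few nuclei. The third, of 25 nuclei, was led by Plin1, Cidec and Myh11, where 31 of 36 Plin1 UMIs came from 1 Running nucleus and all 31 Myh11 UMIs from 1 Old nucleus. In the fifth, of 19 nuclei, the 4 leading genes came nearly all from 1 Old nucleus, with 71 of 73 UMIs of 5730419F03Rik, 57 of 57 of Gm28653, 60 of 60 of A430010J10Rik and 29 of 29 of Pkhd1. It had 29019 CPM of Ttn against 993, and 17 of its nuclei had at least 20 Ttn UMIs. The seventh, of 13 nuclei, was led by Igf1, Sema3d, Col3a1 and Cilp, all of its nuclei came from Young, and 80 of its 110 Col3a1 UMIs came from 1 nucleus. Sema3d was found in 12 of its nuclei and Igf1 in 9. Groups mostly from 1 library may be that library rather than a kind of cell, and their sizes are not compared between libraries.

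**Figure D3:**
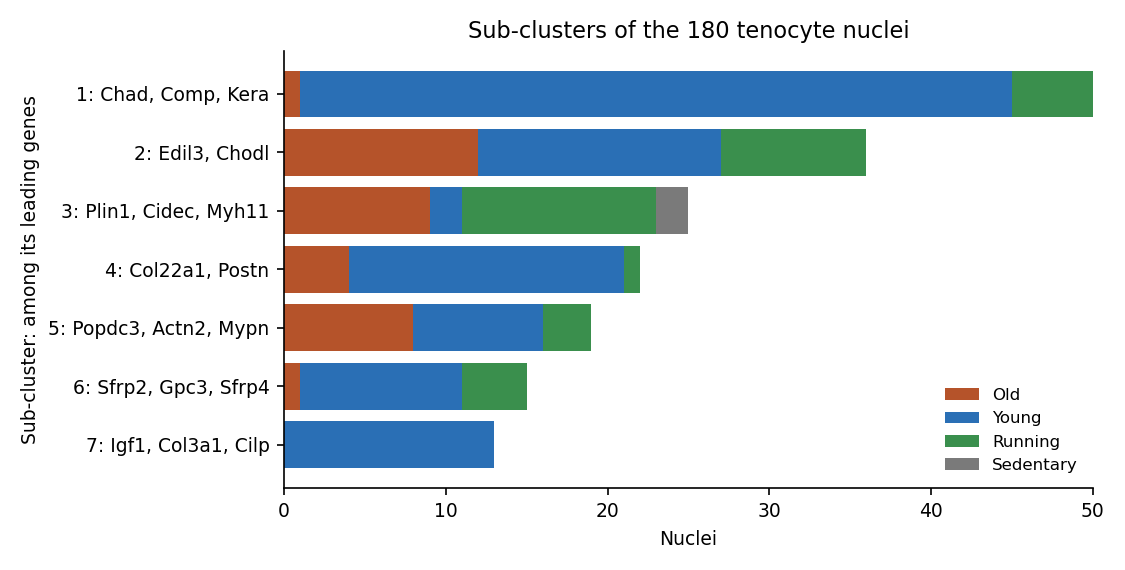
Nuclei (x axis, count) in each of the 7 sub-clusters of the 180 members, with genes among those leading each on the y axis and colours for the 4 10x libraries. Sub-cluster 1 is 44 of 50 Young, sub-cluster 2 holds 12 Old, 15 Young and 9 Running nuclei, and sub-cluster 7 is Young throughout.

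Matrix genes were lower in the Old members than in the Young members. Over the whole table, 1950 genes had at least 50 UMIs in Old and Young members together, of which 179 (9.18%) were at least 2-fold higher in Old and 368 (18.9%) at least 2-fold lower. Among genes with UMIs in both libraries the median ratio of Old over Young was 0.868, or -0.20 on the log2 scale, and after scaling by this median 237 genes were higher and 266 lower, so the lower share of calls went from 67.3% to 52.9%. Without members of 20 or more Ttn UMIs, 84 of 1497 genes (5.61%) were higher and 212 (14.2%) lower. In all nuclei of the tendon cluster 167 of 2660 (6.28%) were higher and 257 (9.66%) lower. The counts given below for gene lists are to be set beside these shares of all genes.

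Fibrillar collagens, the main protein of tendon, were among the lowest in Old. Of 7 with enough UMIs, 0 were at least 2-fold higher and 6 lower, with a median log2 ratio of -1.95 beside -0.21 for all genes tested. Without the Ttn-rich members it was 5 of 7 and -1.42, and in the tendon cluster 7 of 8 and -1.57. Col1a2, a chain of type I collagen (chromosome 6 at 4504814 to 4541544, plus strand), had 33 UMIs in Old and 1152 in Young, 92 in Running and 5 in Sedentary members. These were 326 CPM in Old (224 to 457), 3368 in Young (3176 to 3568) and 1090 in Running, with Young 10.3-fold above Old (7.32 to 15.1). Young stood 6.72-fold above Old without the Ttn-rich members and 6.76-fold in the tendon cluster. Of the Col1a2 UMIs in members, 633 lay in sub-cluster 1, which held 44 Young and 1 Old nuclei, and 649 in the other members.

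Col1a2 UMIs were found in 20 of 35 Old (57.1%) and 105 of 109 Young members (96.3%). Thinned to 1000 UMIs per nucleus, the shares were 36.0% and 89.0%, and among nuclei with a Pecam1 UMI they were 11.9% in Old and 15.2% in Young. Col1a1, the other chain (chromosome 11 at 94936224 to 94953042, plus strand), had 26 UMIs in Old, 659 in Young and 63 in Running members, or 256, 1926 and 746 CPM, and Young stood 7.51-fold above Old (5.08 to 11.6), and 4.37-fold without the Ttn-rich members. Interstitial progenitors had the same order, with 207 CPM of Col1a2 in Old and 917 in Young, and 90.0 and 491 CPM of Col1a1. So had nuclei with a Pecam1 UMI, at lower levels, with 70.3 and 164 CPM of Col1a2, and 34.7 and 103 CPM of Col1a1. In nuclei of at least 20 Ttn UMIs outside the members, Col1a2 had 20.2 CPM in Old and 37.4 in Young. The part of such background in the values of the members was not tested. The lower type I collagen of the Old library was thus not particular to the members.

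The other fibrillar chains followed. Col11a1 had 20, 276 and 25 UMIs in Old, Young and Running members and stood 4.09-fold higher in Young than in Old (2.60 to 6.80), and 2.68-fold without the Ttn-rich members. Col5a2, a chain of type V collagen that sets fibril width, had 27, 299 and 76 UMIs, with Young 3.28-fold above Old (2.21 to 5.06) but 1.88-fold without the Ttn-rich members. Col3a1 had 19, 248 and 35 UMIs, with Young 3.87-fold above Old, and 80 of the Young UMIs came from 1 nucleus. The fibril-associated Col12a1 had 17, 409 and 54 UMIs, or 168, 1196 and 640 CPM, and Young stood 7.13-fold above Old (4.40 to 12.4). That fold was 2.64 in the tendon cluster. The fold of Col3a1 was 2.29 and that of Col12a1 4.53 without the Ttn-rich members.

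Makers and modifiers of collagen showed the same order. Of 9 collagen synthesis and crosslinking genes, 0 were at least 2-fold higher in Old and 7 lower, with a median log2 ratio of -1.77, and -1.09 without the Ttn-rich members. P3h2 had 34 UMIs in Old, 456 in Young and 111 in Running members, or 335, 1333 and 1315 CPM, and Young stood 3.97-fold above Old (2.80 to 5.81). Adamts3, the protease that trims the amino end of procollagens, had 48, 554 and 34 UMIs, with Young 3.42-fold above Old (2.54 to 4.70). With members thinned to 1000 UMIs the log2 ratio of Old over Young for Adamts3 was 0.0103, while it was found in 6 of 25 Old (24.0%) and 53 of 100 Young members (53.0%). Serpinh1, the collagen chaperone HSP47, had 7, 89 and 12 UMIs. Pcolce2, an enhancer of procollagen processing, had 1, 63 and 14 UMIs, a ratio of Young over Old of 18.7 with an interval of 3.23 to 749. Leaving out the Ttn-rich members gave ratios of 2.69 for P3h2, 1.91 for Adamts3 and 2.13 for Serpinh1, and left 1 and 62 UMIs of Pcolce2.

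Among small leucine-rich proteoglycans, which coat fibrils, 5 of 9 were at least 2-fold lower in Old and 0 higher, with a median log2 ratio of -1.01. Without the Ttn-rich members 3 of 8 were lower and 1 higher, with a median of -0.57, and in the tendon cluster 4 of 8 were lower and 1 higher. Summed over the list, these genes made up 0.259% of UMIs in Old and 0.398% in Young, and 0.451% and 0.428% without the Ttn-rich members, so this order turned. Kera (chromosome 10 at 97606879 to 97613692, plus strand) had 1 UMI in Old and 82 in Young, 6 in Running and 0 in Sedentary members, a ratio of Young over Old of 24.3 with an interval of 4.24 to 971, and 1 and 79 UMIs once the Ttn-rich members were left out. Chad (chromosome 11 at 94565047 to 94569127, plus strand) had 0, 74, 10 and 0 UMIs, so Young was at least 7.31-fold higher than Old with 3 UMIs as the limit of a count of 0. Of the Chad UMIs in members, 58 lay in sub-cluster 1, which held 44 Young, 5 Running and 1 Old nuclei, and 26 in the other members. For Kera these were 51 and 38. In the tendon cluster Kera had UMIs in 1 of 111 Old and 66 of 168 Young nuclei, and Chad in 2 and 54. Thinned to 1000 UMIs, Kera was found in 28.0% of Young members and in 0 of 25 Old ones. Among nuclei with a Pecam1 UMI, Kera was found in 0 of 767 in Old and 0.835% in Young. Dcn differed little, with Young 1.28-fold above Old (1.09 to 1.52), and 0.794 times Old without the Ttn-rich members.

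Matrix glycoproteins split. Of 22 genes, 0 were at least 2-fold higher in Old and 11 lower, with a median log2 ratio of -1.01, and without the Ttn-rich members 5 of 18 were lower and 1 higher. Fn1, or fibronectin, had 6 UMIs in Old, 137 in Young and 8 in Running members, with Young 6.77-fold above Old (3.03 to 18.8). Sparc, a collagen-binding glycoprotein, had 11, 231 and 25 UMIs, with Young 6.22-fold above Old (3.41 to 12.6). Abi3bp, a matrix protein of connective tissue, had 84, 1037 and 217 UMIs, or 829, 3031 and 2571 CPM, with Young 3.66-fold above Old (2.93 to 4.63). Itgbl1, an integrin beta-like secreted protein, had 79, 871 and 271 UMIs, or 779, 2546 and 3211 CPM. Folds of Young over Old without the Ttn-rich members were 3.76 for Fn1, 3.69 for Sparc, 2.29 for Abi3bp and 1.89 for Itgbl1. Tnc differed by 1.88-fold over all members and by 1.08-fold without the Ttn-rich ones.

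The ratios of the rule genes are given as a description, since the rule sets a floor under them in both libraries. Fmod was 1.80-fold, Thbs4 1.93-fold and Mkx 1.76-fold higher in Young than in Old over all members. Without the Ttn-rich members these were 1.13-fold, 1.09-fold and 1.16-fold. Of the other tendon markers 13 of 16 were at least 2-fold lower in Old over all members (median log2 ratio -2.30) and 6 of 12 without the Ttn-rich ones (median -1.17). In the tendon cluster it was 10 of 16, with 1 higher.

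**Figure D4:**
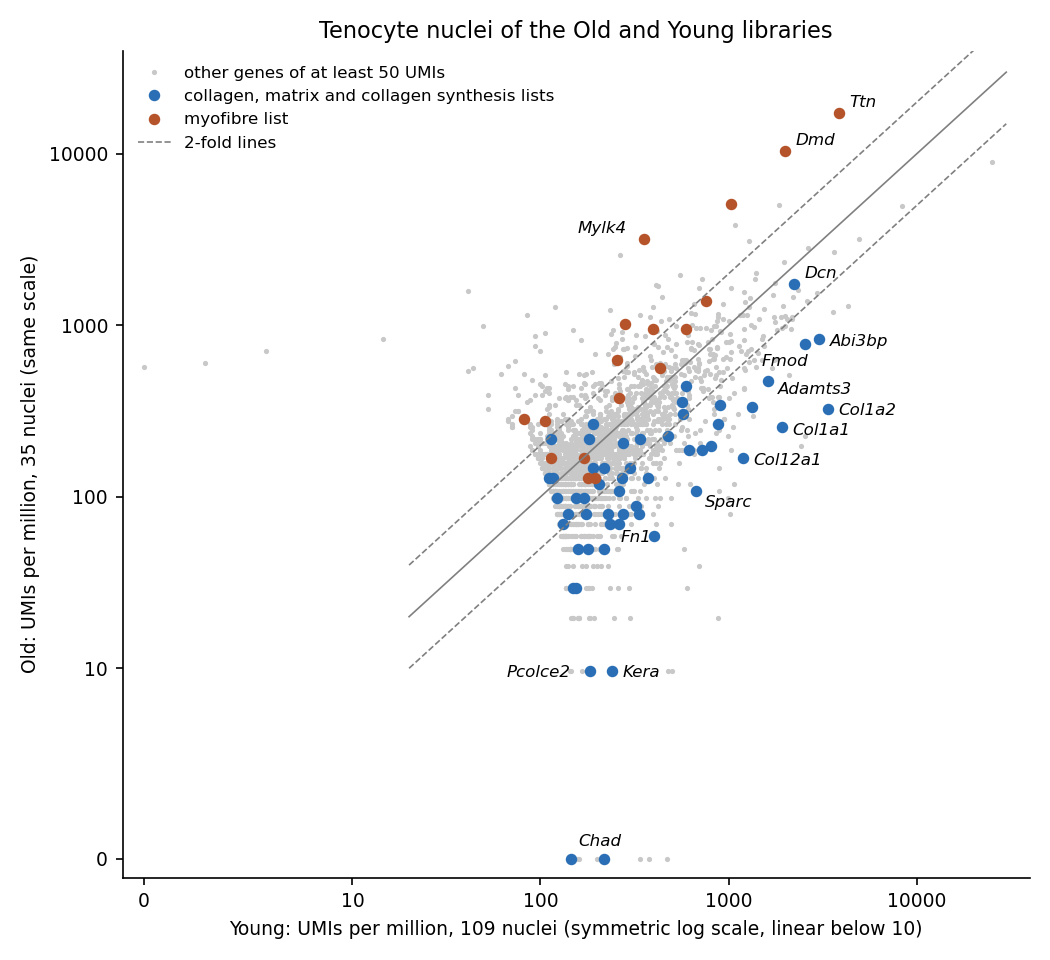
CPM in Old members (y axis) against Young members (x axis) for genes of at least 50 UMIs, on symmetric log axes that are linear below 10; blue points are collagen, matrix and collagen synthesis genes, red points myofibre genes and dashed lines 2-fold. Col1a2 lies at 3368 in Young and 326 in Old, Chad at 0 in Old, and Ttn at 3882 and 17350.

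Of 17 growth factor and Wnt genes, 10 were at least 2-fold lower in Old and 2 higher, beside 18.9% and 9.18% of all genes. The median log2 ratio was -1.58, and -1.11 without the Ttn-rich members. Igf1, an anabolic growth factor of tendon and muscle, had 3 UMIs in Old, 205 in Young and 22 in Running members, a ratio of Young over Old of 20.3 with an interval of 6.83 to 99.0. Of the Igf1 UMIs in members, 99 lay in sub-cluster 7, which is Young throughout, and 131 in the other members. Interstitial progenitors had 98.6 CPM of Igf1 in Old and 412 in Young. Igfbp5, an IGF-binding protein, had 12, 368 and 71 UMIs, with Young 9.09-fold above Old (5.14 to 17.8). Dkk2, a secreted Wnt modulator, had 2, 302 and 48 UMIs, and 242 of the 355 UMIs in members lay in sub-cluster 6. The fold of Igfbp5 was 4.91 without the Ttn-rich members, where Igf1 had 3 UMIs in Old and 201 in Young, and Dkk2 2 and 297.

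Fgfr2, a fibroblast growth factor receptor, went the other way. It had 90 UMIs in Old, 81 in Young and 30 in Running members, or 888, 237 and 355 CPM, and Old stood 3.75-fold above Young (2.75 to 5.13). Old stood 3.79-fold above Young without the Ttn-rich members and 2.18-fold in the tendon cluster. In interstitial progenitors it had 971 CPM in Old and 347 in Young. Vegfa, the vascular growth factor, had 21, 34 and 10 UMIs, with Old 2.08-fold above Young (1.15 to 3.70). Without the Ttn-rich members 1 of 14 genes of the list was at least 2-fold higher in Old, which leaves Vegfa uncalled beside Fgfr2.

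Of 17 TGF-beta and BMP genes, 8 were at least 2-fold lower in Old and 0 higher, beside 18.9% and 9.18% of all genes. The median log2 ratio was -0.85. Without the Ttn-rich members 5 of 16 were lower, beside 14.2% of all genes. In the tendon cluster 4 of 20 were lower and 1 higher, beside 9.66% and 6.28% of all genes. The median there was -0.30, beside -0.10 for all genes. Bmpr1b, a BMP receptor, had 8 UMIs in Old, 348 in Young and 31 in Running members, or 78.9, 1017 and 367 CPM. Young stood 12.9-fold above Old (6.47 to 30.1), and 13.6-fold in the tendon cluster. Bmpr1b had 3 UMIs in Old and 317 in Young without the Ttn-rich members. Interstitial progenitors had the opposite order for Bmpr1b, with 171 CPM in Old and 62.1 in Young.

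Mechanosensing and adhesion genes stayed near the median of all genes. Of 22, 1 was at least 2-fold higher in Old and 5 lower, with a median log2 ratio of -0.29 that turned to 0.12 without the Ttn-rich members. Piezo2 had 31, 386 and 87 UMIs in Old, Young and Running members, with Young 3.69-fold above Old (2.56 to 5.51). Itga2, a collagen-binding integrin, had 5, 70 and 20 UMIs. Itgb1, the common integrin beta chain, had 38, 101 and 22 UMIs, with a ratio of Young over Old of 0.788 (0.538 to 1.18). Tead1, which binds DNA with the mechanosensitive cofactor YAP, had 51, 177 and 53 UMIs and a ratio of 1.03 (0.749 to 1.43). With the Ttn-rich members left out, the ratios of Young over Old were 2.21 for Piezo2, 2.65 for Itga2, 0.513 for Itgb1 and 1.15 for Tead1.

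Transcription regulators of tendon and skeleton also differed little. Of 17, 3 were at least 2-fold lower in Old and 0 higher, with a median log2 ratio of -0.48. The 3 were Gli2 and Gli3, which carry hedgehog signals, and Nfatc1. Gli2 had 8 UMIs in Old and 101 in Young, with Young 3.74-fold above Old (1.83 to 8.90), and 2.10-fold without the Ttn-rich members. Sox6, a factor of cartilage that is also expressed in muscle, had 206 UMIs in Old, 480 in Young and 78 in Running members, with a ratio of Young over Old of 0.691 (0.585 to 0.817).

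Matrix proteases and their inhibitors had 4 of 10 at least 2-fold lower in Old and 0 higher, beside 18.9% and 9.18% of all genes. Their median log2 ratio was -0.96. Timp3, a protease inhibitor bound to matrix, had 19 UMIs in Old, 223 in Young and 24 in Running members, with Young 3.48-fold above Old (2.18 to 5.89). Mmp2, or gelatinase A, had 17, 55 and 20 UMIs and a ratio of 0.959 (0.548 to 1.76). These ratios were 2.59 for Timp3 and 0.556 for Mmp2 without the Ttn-rich members. Of 16 genes that the study named for DNA repair and proteostasis on these samples, 11 had enough UMIs and 0 of these were past 2-fold in either direction, with a median log2 ratio of -0.11. Without the Ttn-rich members 3 of 10 were lower. Eya1, below the limit of 50 UMIs, had 21 UMIs in Old and 13 in Young members, or 207 and 38.0 CPM. In the tendon cluster it had 107 CPM in Old and 62.9 in Young. These UMIs are too few for a comparison. Ldha, the lactate dehydrogenase subunit at the centre of the study, had 10 UMIs in Old, 25 in Young and 2 in Running members, which is too few for a comparison.

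Of 17 myofibre genes with enough UMIs, 9 were at least 2-fold higher in Old and 0 lower, with a median log2 ratio of 1.26, and 1.34 over 8 genes without the Ttn-rich members. Ttn had 1759 UMIs in Old and 1328 in Young, or 17350 and 3882 CPM, and was 4.47-fold higher in Old (4.16 to 4.80). Mylk4, which the study lists for type IIb myonuclei, was 8.93-fold higher. Pdlim3, a Z-disc protein, had 101 UMIs in Old and 17 in Young, 20.05-fold higher in Old (11.9 to 35.8) and 10.2-fold in the tendon cluster. Sorbs2, an adaptor of the Z-disc, had 85 and 5 UMIs, 57.4-fold higher in Old (23.6 to 181) but 5.47-fold in the tendon cluster. In members under 20 Ttn UMIs the folds of Old over Young were 3.59 for Ttn, 7.91 for Mylk4 and 13.6 for Pdlim3, and Sorbs2 had 56 UMIs in Old and 0 in Young. Interstitial progenitors had the same order for Ttn and Mylk4, with 26181 CPM of Ttn in Old and 9299 in Young, and 4542 and 871 CPM of Mylk4. With myofibre UMIs left out of the totals, 190 of 1950 genes were at least 2-fold higher in Old and 349 lower. All 80 named genes that were checked kept their direction. That setting changes the totals only, and the part of the fibre RNA in the other values of the members was not tested.

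Of 4 glycolysis genes with enough UMIs, 2 were at least 2-fold higher in Old, Pfkfb3 at 4.19-fold (2.50 to 7.08) and Pfkm at 3.66-fold (2.02 to 6.65). Pfkm is the muscle form of phosphofructokinase. Interstitial progenitors had 356 CPM of Pfkm in Old and 147 in Young. No glycolysis gene had enough UMIs without the Ttn-rich members. Summed over the list, these genes made up 0.231% of UMIs in Old and 0.107% in Young members. Without the Ttn-rich members this was 0.142% and 0.0674%. In the tendon cluster 3 of 6 genes were at least 2-fold higher in Old and 0 lower. Whether these values follow the myofibre RNA was not tested.

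**Figure D5:**
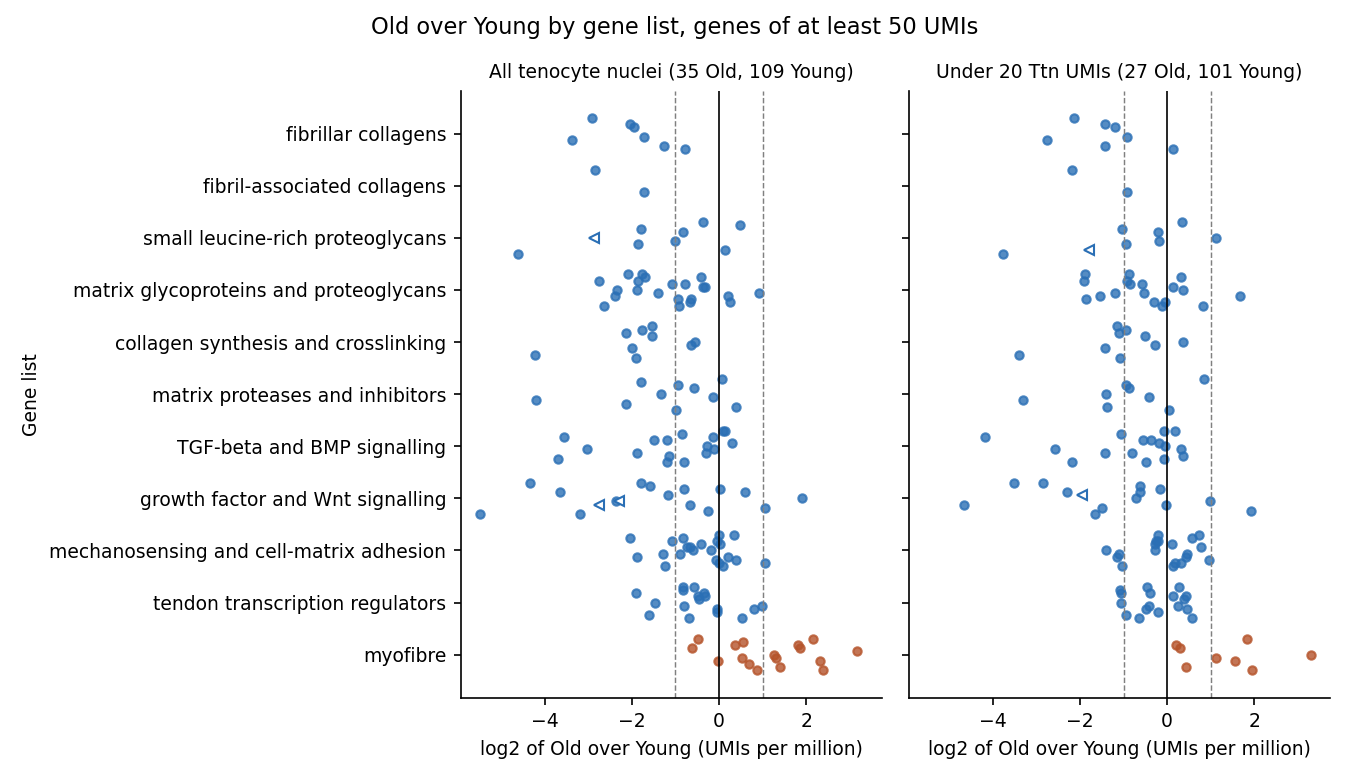
log2 ratio of Old over Young (x axis) for each gene of at least 50 UMIs in 11 lists (y axis), over all members (left) and over members under 20 Ttn UMIs (right); dashed lines are 2-fold and open triangles mark genes with 0 UMIs in Old, drawn at the limit for 3 UMIs. Fibrillar collagens lie left of 0 in all 7 cases on the left panel and in 6 of 7 on the right, and the myofibre genes lie mostly to the right.

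The makeup of the members differed between the libraries as well, so sub-cluster 2, with 12 Old and 15 Young nuclei of which 0 had 20 or more Ttn UMIs, was read alone. This group was chosen after its values were seen. Col1a2 had 10 UMIs in Old and 53 in Young there, or 457 CPM (219 to 840) and 1908 (1429 to 2495), with 877 in Running. Col1a1 had 7 and 43 UMIs, and Abi3bp 29 and 117. Type I collagen and Abi3bp were thus lower in Old within the group too, with ratios of Old over Young of 0.239, 0.207 and 0.315. Col12a1, with 10 and 19 UMIs, had overlapping intervals. Dcn was higher in Old, with 4752 CPM (3882 to 5757) against 2160 (1648 to 2780).

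Running and Sedentary members could not be compared gene by gene. The 2 Sedentary members held 2218 UMIs, and of 213 genes with at least 50 UMIs in both libraries together 33 had over 3 UMIs in Sedentary. In the tendon cluster, with 105 Running and 11 Sedentary nuclei, 308 genes had over 3 UMIs in Sedentary. A filter on Sedentary UMIs keeps genes that are high there, so nothing is read from their split, in which 15 (4.87%) were at least 2-fold higher in Running and 59 (19.2%) lower. These 11 nuclei held 7895 UMIs, so most Sedentary values rest on a few molecules and no gene is named. Beside the other libraries, Running members lay close to Young for P3h2, Abi3bp and Piezo2. They lay between Old and Young for Col1a2, Col1a1, Col12a1, Col11a1, Sparc, Igf1 and Bmpr1b, with 1090, 746, 640, 296, 296, 261 and 367 CPM. Other named genes lay outside the range of Old and Young. Adamts3 and Col22a1 were lower in Running than in both, and Itgbl1, Dcn and Chodl were higher than in both. These genes are examples and were not chosen by a rule. The mice of these libraries differ in age and were not sampled for such a comparison, so the values are given side by side only.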

How the data were processed

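For each library the authors deposited a filtered matrix of raw UMI counts, with genes in one dimension and nuclei in the other. The submitters' processing notes name Cell Ranger 6.1.2 for the 10x reads, mm10 and Seurat 4.1.1. Whether intronic reads were counted is not given in the sources used here. Doublets stayed in. Nuclei were filtered by the limits of the study on detected genes and mitochondrial share, but its earlier filter on genes found in few cells was not applied. Counts of the member nuclei were summed per library and divided by their total (CPM). Levels of different genes are not comparable, since nuclear RNA counts also depend on gene length.

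Sums carry exact Poisson, shares exact binomial (Clopper-Pearson) and ratios exact conditional binomial intervals (scipy 1.17.1). Old and Young were compared over genes with at least 50 UMIs in both libraries together, and a gene counts as called past 2-fold. A gene at 0 enters a median at the limit of 3 UMIs, as does a comparison class with fewer in a ratio. A model across all 8 libraries was planned only if each held at least 20 members and was not run. Scripts were tested on simulated data. Clustering used scanpy 1.11.5 and leidenalg 0.10.2 (2000 variable genes, 30 components, 20 neighbours, resolution 1), and members alone 1000 genes and 10 components. Gene comparisons left out 114 mitochondrial and ribosomal protein genes.

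Named genes were the 5 rule genes, up to 6 genes per list with the most UMIs, list genes past 2-fold, the 10 highest and lowest ratios between Old and Young, the 15 leading genes over each class, Ldha and the study-named genes. Leading genes of classes were ranked over 3 libraries, since Sedentary held 2 members. Leading genes of clusters, and Chodl and Dpp4 beside them, are given as descriptions, and genes of sub-clusters were chosen after their values were seen. Members, lists and tests were chosen with earlier results of these data known. Symbols were matched to GENCODE on GRCm38 for 227 of 228 genes. Alternatives varied the marker limit, filters, doublets, depth, scaling and clustering.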

Additional observations from a re-analysis of the deposited data

How the results depend on the processing

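No paired analysis was possible because each group had 1 10x library and the result comes from no test, and for the same reason no library could be left out. The share in Young over that in Old, 3.09, was 6.91 among non-myonuclei (91 of 3227 and 18 of 4413 nuclei, with members that counted as myonuclei left out) and 1.5 with tendon-cluster nuclei in place of the rule. With Dpp4 not required at 0 it was 2.79 (138 Young and 49 Old nuclei). The share in Running over that in Sedentary, 13.9, was then 20.1 (74 and 3 nuclei). Genes at least 2-fold higher and lower in Old numbered 496 and 858 with at least 20 UMIs, 72 and 171 with at least 100 UMIs, 81 and 222 with at least 5 marker UMIs, 27 and 73 with members thinned to 1000 UMIs, 84 and 212 without Ttn-rich members, and 113 and 210 in tendon-cluster nuclei under 20 Ttn UMIs. Fewer genes reach the limit in the stricter settings. Single genes that changed direction were Col8a1 (log2 ratio 0.22 with at least 5 marker UMIs), Adamts3 (0.0103 when thinned), Thbs2 (0.10 with nuclei weighted equally, 0.23 in the tendon cluster and 0.40 in its nuclei under 20 Ttn UMIs), Bmp6 (0.0027 in the tendon cluster and 0.0203 in its nuclei under 20 Ttn UMIs), and Plod2 (0.15) and Fstl1 (0.20) in cluster nuclei under 20 Ttn UMIs, and the cause was not tested. Genes with over 3 Sedentary UMIs numbered 0 with at least 5 marker UMIs, 6 when thinned and 308 in the tendon cluster, against 33. With at least 5 marker UMIs there were 0 Sedentary members, so that share ratio has no value. At a clustering resolution of 1.5 the share of members in 1 cluster was 92.2%. The settings on Ttn and on the tendon cluster were added after seeing the data. Depth limits all Old values of under 10 UMIs.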

Other observations

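Dpp4, a peptidase of adventitial fibroblasts that the rule required at 0, differed between libraries within the tendon cluster. It was chosen after its values were seen. Dpp4 UMIs were found in 20 of 111 Old (18.0%), 29 of 168 Young (17.3%), 44 of 105 Running (41.9%, interval 32.3 to 51.9) and 2 of 11 Sedentary nuclei of the cluster. Levels of Dpp4 there were 182 CPM for Old (122 to 262), 108 for Young (80.5 to 143), 624 for Running (521 to 741) and 253 for Sedentary. Adventitial progenitors had 903, 1119, 1134 and 627 CPM in the same order. Among nuclei outside the cluster the shares with a Dpp4 UMI were 11.7%, 6.34%, 5.73% and 2.25%. In Running, 38 of the 76 cluster nuclei that were no members met the marker part of the rule and had a Dpp4 UMI, against 12 of 82 in Old and 24 of 77 in Young. The difference has no replicate.

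Of the 245 tendon-cluster nuclei that were no members, 38 had no UMI of a rule gene, 82 had 1 or 2 such UMIs, 42 fell short of the marker part in another way, 74 met it with a Dpp4 UMI and 9 with a UMI of another gene required at 0.

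Junction myonuclei, counted by Col22a1 and Ttn, numbered 57 for Old, 29 for Young, 154 for Running and 40 for Sedentary, so their order over the libraries was not that of the tenocyte nuclei.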
